A study of Homo sapiens with 5 samples.

Results

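The genes for the proteins of the mitochondrial ribosome were followed in MDA-MB-231 cells, a mesenchymal-like breast cancer line, after 4 h with proteasome-directed inhibitors. Members were all genes of the deposited table whose symbol has the form MRPL or MRPS, a number and at most 1 further letter. The rule found 43 of the 4202 genes listed, 32 for proteins of the large subunit and 11 for proteins of the small subunit. RefSeq lists 77 protein-coding symbols of this form, and the other 34 were not analysed here. MRPS30 carries an S in its symbol but is counted with the large subunit, where its protein sits. The genes for 4 more proteins of this ribosome have other symbols and are described with the pathway lists.

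The 5 libraries of total RNA came from cells given CGI-1746 alone, LU-102 alone, both together (the combination), bortezomib, or none of these (mock). CGI-1746 was made as an inhibitor of BTK, a kinase of B cell receptor signalling, and the series title places an action on the proteasome beside it. LU-102 is an inhibitor aimed at the trypsin-like sites of the proteasome, and bortezomib, which acts mainly on its chymotrypsin-like sites, was the control for proteasome inhibition. The sources used here give no doses. With 1 library a condition, the values carry no replicate error and the differences were not tested.

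Mitochondria carry a small genome of their own that codes for core subunits of the respiratory chain. Its mRNAs are translated inside the organelle by a ribosome whose RNAs are made there but whose proteins are all coded in the nucleus, translated in the cytosol and imported. Part of these proteins descend from the bacterial ribosome, and the rest were added during the evolution of mitochondria. The genes are expressed in nearly every tissue, and defects in several of them cause loss of oxidative phosphorylation.

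The promoters of 39 members could be read from RefSeq windows (GRCh38.p14) that run from 250 bases before to 50 after a transcription start, 50 windows in all. A word of 9 letters, AAGATGGCG, which matches the textbook core of YY1 binding, was searched on both strands together with CCGGAAG (ETS family), GCGCANGCG (NRF1) and CCAAT (NF-Y). AAGATGGCG was found in 10 of the 39 members (25.6%), against 5.78% of the 3338 genes of the table with a window and 2.14% of all 27305 genes with one. CCGGAAG was found in 15 members (38.5%), against 27.4% of the genes of the table and 12.2% of all genes, and CCGGAAG and AAGATGGCG can share the letters AAG. GCGCANGCG was found in 7 members (17.9%), against 19.7% and 9.02%, and CCAAT in 13 members (33.3%), against 44.7% and 39.7%. NRF1 and ETS factors of the GABP type are known as regulators of nuclear genes for mitochondria. A match describes the letters of the window and is neither a shown site nor a cause.

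The stretches that hold AAGATGGCG, or its reverse complement CGCCATCTT, are shown because its share among the members was the farthest above that of the table. MRPL52 holds the word at 98 and at 64 bases before the start, and only the former is shown. Capitals mark the word, and each line is written 5′ to 3′ along the strand of the gene.
MRPL38, chr17:75904862-75904885, minus strand: cggagggAAGATGGCGgcgccctg
MRPL42, chr12:93467515-93467538, plus strand: ttgaaacAAGATGGCGggttcgtg
MRPS10, chr6:42217836-42217859, minus strand: gaccggcAAGATGGCGgcgcggac
MRPS30, chr5:44808953-44808976, plus strand: gcgggcaAAGATGGCGgcggccag
MRPS24, chr7:43869482-43869505, minus strand: ttggcccAAGATGGCGgcctccgt
MRPS18B, chr6:30617856-30617879, plus strand: gtacgtcAAGATGGCGgcgtctgt
MRPL50, chr9:101398579-101398602, minus strand: ctcatcgAAGATGGCGgcgcgatc
MRPL36, chr5:1799858-1799881, minus strand: ccccccgcCGCCATCTTccttcct
MRPL52, chr14:22829782-22829805, plus strand: atgacccAAGATGGCGgagccgtg
MRPL32, chr7:42932145-42932168, plus strand: ccgcgctcCGCCATCTTtacccga

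In 7 of these 10 members the word began 6 to 23 bases after the first transcribed base, in the strand of the gene, and in the other 3 it lay only before the start. The promoter of MRPS34, the member with the largest differences from mock with LU-102 and with the combination, held CCGGAAG as its reverse complement CTTCCGG 3 times, at bases 71, 29 and 19 before the start, and the pair nearest to the start is shown with CTTCCGG in capitals.
MRPS34, chr16:1773143-1773170, minus strand: ccggcctCTTCCGGtgaCTTCCGGccgg

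The values of members with and without a word overlapped in each comparison with mock, for all 4 words. With bortezomib the 10 members with AAGATGGCG had a median log2 difference from mock of -1.02, ranging from -2.70 to -0.34, and the 29 without it -0.93, ranging from -2.15 to -0.25. The 7 members with GCGCANGCG had -1.17 and the 32 without it -0.94, again with ranges that overlapped.

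The members were expressed at low to moderate levels. Levels are the normalized signal of the deposited table, which behaves as a read number per base of gene and per library factor, so they compare genes per length. The lowest, median and highest member had 1.46, 4.21 and 16.2 with CGI-1746, 1.31, 3.75 and 17.6 with LU-102, 1.45, 4.30 and 19.0 with the combination, 0.17, 1.17 and 13.1 with bortezomib, and 1.50, 4.45 and 17.3 in mock. The first 3 libraries and mock held similar ranges, and the lowest, median and highest values of the bortezomib library were each below those of the others, although its range overlapped theirs. The cytosolic ribosomal protein genes had median levels of 25.7, 26.2, 28.5 and 4.30 in the 4 treated libraries in that order and 27.6 in mock, and the nuclear-coded respiratory chain genes 3.66, 3.59, 4.16 and 1.13, and 3.60 in mock. On this per-length scale the members were close to the respiratory chain genes and well below the cytosolic ribosome.

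MRPS16, the counterpart of a bacterial small subunit protein, had the highest level in mock, with 16.2, 14.9, 17.6 and 13.1 in CGI-1746, LU-102, combination and bortezomib cells and 17.3 in mock cells. MRPL41 had 15.8, 17.6, 19.0 and 7.55 in the treated libraries in the same order and 15.1 in mock. MRPL36, the counterpart of the smallest protein of the bacterial large subunit, had 11.9, 14.3, 12.1 and 1.22, against 13.4 in mock. These were followed in mock by MRPL49 and MRPL51, proteins of the large subunit without a bacterial counterpart, at 13.1 each. The lowest members in mock were MRPS25 at 1.50, MRPL37 at 1.55, MRPL4 at 1.64, MRPL32 at 1.65 and MRPL42 at 1.74. MRPS18B, 1 of 3 human paralogs related to bacterial S18, had 5.86, 6.45, 6.49 and 1.64 in the treated libraries and 6.01 in mock, and the other 2 paralogs were not analysed here.

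**Figure D1:**
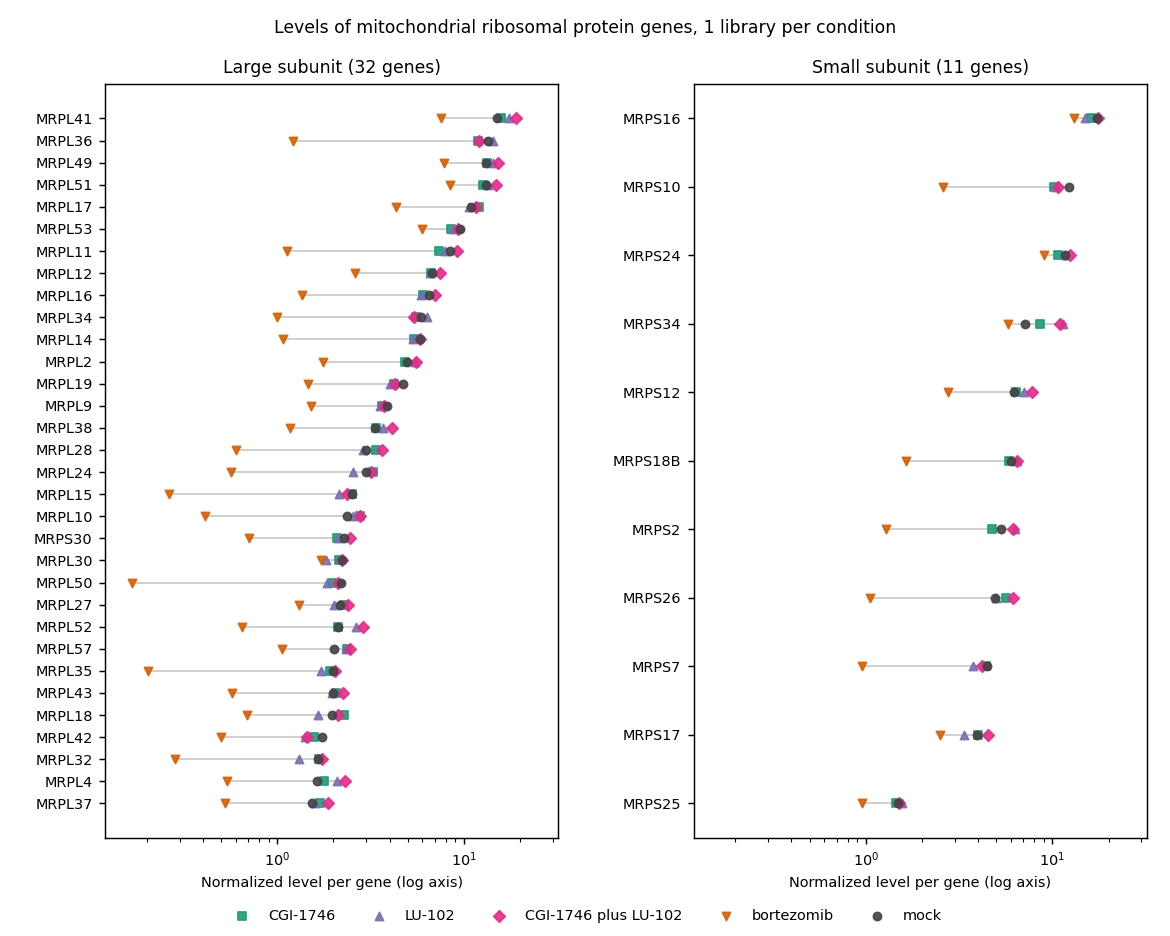
Level of each member (log axis, normalized signal) in the 5 libraries, with large subunit genes on the left and small subunit genes on the right, ordered by the mock level. Each symbol is 1 library, and the grey line joins its lowest and highest value. The bortezomib symbol lies left of the others in each row, while the other 4 symbols mostly overlap; MRPS34 is the row in which LU-102 and the combination stand right of mock by most.

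Depth limits what single members can show. From GENCODE 29 transcript lengths, about 26 to 767 reads stood behind a member in mock, with a median of 106, and about 5 to 644 with bortezomib, with a median of 30. Only 18 of the 43 members reached a level of 5 in mock. No member was under a level of 1 in mock or with CGI-1746, LU-102 or the combination, and 17 were under it with bortezomib. The counting intervals below are exact Clopper-Pearson intervals at 95% from these approximate reads, cover counting error only, and leave out the variation between cultures. They were made for members only, so counts of intervals that leave out 1 have no share of all genes beside them. Differences are given as log2(level + 1) of the first condition less that of the second, a scale that understates the change of low genes, and ratios are plain quotients of levels.

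The effect of the BTK inhibitor alone was read from CGI-1746 against mock, where the mitochondrial ribosome genes stood where the rest of the table stood. Their median difference was -0.01, against -0.02 over all 4186 genes compared, with 19 members above 0 and 24 below. With the libraries scaled by the median of ratios 25 members lay above 0 and 18 below, so the larger side depended on the scaling. No member was 2-fold higher or lower, where 0.119% and 0.0478% of all genes were. At a smaller threshold, levels plus 1 that were 25% or more higher (1.53% of all genes) or lower by the same factor (0.836%), there was no member either. MRPS34, a small subunit protein added in mitochondria, was highest at 0.23, followed by MRPS26 at 0.17, MRPL10 of the stalk that recruits elongation factors at 0.17, MRPL57 at 0.16 and MRPL18 at 0.14. MRPS10, a protein of the head of the small subunit, was lowest at -0.24, with a level of 10.2 in CGI-1746 cells and 12.3 in mock cells. Its ratio of 0.834 had a counting interval of 0.722 to 0.958, and it was the only member whose interval did not include 1. MRPL11 of the stalk base followed at -0.18, MRPL36 at -0.16, MRPL53 at -0.15 and MRPS2 at -0.14.

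For the proteasome inhibitor LU-102 against mock, 1 member stood apart. MRPS34 (chromosome 16, 1771890 to 1773155, minus strand, GRCh38, 3 exons) had levels of 8.54, 11.5, 11.0 and 5.77 in CGI-1746, LU-102, combination and bortezomib cells, against 7.14 in mock cells. LU-102 and combination cells were high and bortezomib cells low. With LU-102 its log2 difference was 0.62, from about 201 reads against 123, and its ratio of 1.61 had a counting interval of 1.28 to 2.03. It was the only member 25% or more higher, where 2.03% of all genes were, and no member was lower by that factor, where 1.43% were. At 2-fold there was no member in either direction, against 0.0715% of all genes higher and 0% lower.

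The rest of the members were spread around the median of the table with LU-102. Their median was -0.04, against -0.06 over 4193 genes, again with 19 above 0 and 24 below. With the libraries scaled by the median of ratios 21 lay above 0 and 22 below. After MRPS34 came MRPL4, a protein of the wall of the exit tunnel, at 0.24, MRPL52 at 0.23, MRPL41 at 0.21 and MRPS2 at 0.20. The lowest were MRPS10 at -0.22, MRPS16 and MRPL19 at -0.20 each, MRPS7 at -0.20 and MRPL32 at -0.19. MRPS10 had 10.4 in LU-102 cells against 12.3 in mock cells, and its ratio of 0.847 had counting bounds of 0.735 and 0.973. The MRPS16 ratio of 0.861 had bounds of 0.775 and 0.957. With MRPS34 these were the 3 members whose interval did not include 1.

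The combination against mock gave the highest levels of the family, by a small margin shared with the table. The levels of the 43 members summed to 264 in combination cells and 243 in mock cells, and 33 members were above 0 and 10 below. Their median was 0.09, against 0.03 over 4189 genes, of which 57.8% were above 0. Scaling the libraries by the median of ratios put 24 members above 0 and 19 below, so this majority depended on how the libraries were set against each other. MRPS34 (0.56), MRPL4 (0.33) and MRPL52 (0.33) were 25% or more higher, where 5.42% of all genes were, and none was lower by that factor, where 1.38% were. None was 2-fold higher or lower, where 0.167% and 0.0477% of all genes were.

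MRPL4 had levels of 1.78, 2.11, 2.31 and 0.54 in CGI-1746, LU-102, combination and bortezomib cells and 1.64 in mock cells. MRPL52 had 2.11, 2.66, 2.90 and 0.65 in the same order and 2.11 in mock. For both genes the combination was the highest library, but about 36 and 39 reads in mock left intervals of the combination ratio from 0.918 to 2.25 for MRPL4 and from 0.911 to 2.16 for MRPL52. Better counted members were MRPL41, with a ratio of 1.26 and an interval of 1.09 to 1.46, and MRPL49, with 1.16 and an interval of 1.02 to 1.32. MRPS12, the counterpart of the bacterial protein at the decoding centre, was at 0.28, with 7.81 in combination cells against 6.24 in mock cells. At the other end were MRPS10 at -0.19, MRPL42 at -0.16, MRPL36 at -0.14, MRPL19 at -0.11 and MRPL34 at -0.10.

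**Figure D2:**
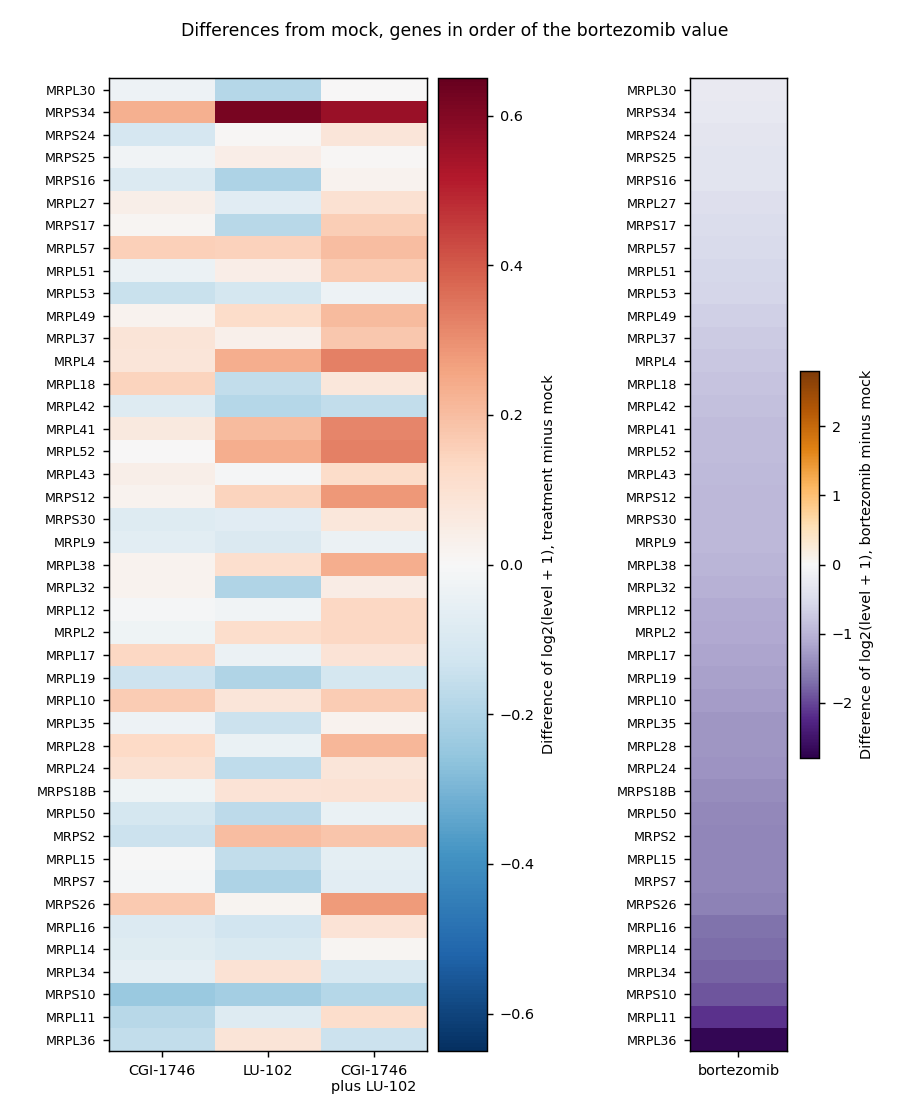
Difference of log2(level + 1) from mock for each member, as colour, with CGI-1746, LU-102 and their combination on 1 scale and bortezomib on its own wider scale. Genes run from the least lowered with bortezomib at the top to the most lowered at the bottom. MRPS34 is the darkest cell with LU-102 (0.62) and the combination (0.56), MRPS10 is below 0 in all 4 columns, and the bortezomib column is below 0 in all 43 rows.

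Against the single agents the combination differed little in these genes. Set against CGI-1746 the median of the members was 0.09, against 0.04 over 4193 genes, with 2 members 25% or more higher, where 3.39% of all genes were, and none lower by that factor, where 0.668% were. These were MRPS34 at 0.33 (11.0 in combination cells, 8.54 in CGI-1746 cells) and MRPL52 at 0.33 (2.90 and 2.11). Neither passed it under median-of-ratios scaling, a pseudocount of 5, centring on the median of all genes, or adjustment for GC content, length and level, and that scaling turned the median of the members to -0.017. Set against LU-102 the median was 0.12, against 0.08, with 1 member 25% or more higher, where 3.01% of all genes were, and none lower by that factor, where 0.978% were. That member was MRPS17, at 0.34, with 4.54 in combination cells and 3.38 in LU-102 cells and a ratio interval of 1.03 to 1.73. No member passed it against LU-102 in those 4 alternatives, and the scaling put the median at -0.0016. MRPS34 was at -0.05 here, with a ratio of 0.960 and an interval of 0.784 to 1.18. No member was 2-fold different in either of these comparisons. Of all genes 0.0715% were 2-fold higher and 0.0238% lower than with CGI-1746, and 0.143% higher and 0% lower than with LU-102.

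Departure from additivity takes the log2 value of the combination, subtracts that of each single agent and adds that of mock, and it was small for the family. Its median was 0.11 over the members and 0.10 over the 4197 genes compared. MRPL11 (0.38) and MRPS17 (0.33) passed the 25% threshold above 0, where 5.98% of all genes did, and none passed it below 0, where 1.57% did. None passed 2-fold, where 0.0715% of all genes did in each direction. MRPS16 followed at 0.32. MRPL11 had 7.33, 7.93 and 9.22 in CGI-1746, LU-102 and combination cells and 8.45 in mock cells, so both single agents were below mock and the combination above it. MRPS34 had the lowest value, -0.28, since the combination stood no higher than LU-102, and MRPL34 (-0.13) and MRPL57 (-0.11) followed.

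Bortezomib against mock, the control for proteasome inhibition, was the comparison in which the whole family was lower. All 43 members lay below 0, as did 3862 of the 4189 genes compared, and 21 members were 2-fold or more lower, where 48.1% of all genes were. None was 2-fold higher, where 1.38% were. The median of the members was -0.996, against -0.98 over all genes, and the median plain ratio was 0.310, against 0.324. Of the members 21 lay above the median of all genes and 22 below. With levels limited to 5 or more the medians were -1.13 for the 18 members left and -1.43 for all genes, so there the members stood 0.29 above the table. Relative to that median 2 members were 2-fold lower, where 7.83% of all genes were, and none 2-fold higher, where 7.52% were. Levels are shares of a library, so less RNA per cell and fewer cells with the RNA cannot be told apart, and a larger share taken by other RNAs lowers them too. Median-of-ratios scaling moved the median of all genes to -0.44 and put 11 members above 0, MRPS34 first at 0.59, and 32 below, so the direction of those 11 depends on the scaling.

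The spread inside the family was wide in the bortezomib library. MRPL36 (chromosome 5, 1798386 to 1801366, minus strand) had the lowest log2 difference, -2.70, at a level of 1.22 in bortezomib cells against 13.4 in mock cells. MRPL11 followed at -2.15, with 1.13 in bortezomib cells against 8.45 in mock cells. These were the 2 members 2-fold below the median of all genes. MRPS10 was at -1.88 (2.61 in bortezomib cells, 12.3 in mock cells), MRPL34 at -1.78 (0.996 and 5.87) and MRPL14, which lies on the face of the large subunit that meets the small one, at -1.71 (1.07 and 5.80). As a plain ratio MRPL50 was lowest, 0.0753 with an interval of 0.034 to 0.139, from a level of 0.17 in bortezomib cells and 2.21 in mock cells.

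Other members kept most of their level with bortezomib. The ratio was 0.808 for MRPS34 (interval 0.620 to 1.06), 0.770 for MRPS24 (0.596 to 0.990), 0.769 for MRPL30 (0.565 to 1.04) and 0.760 for MRPS16 (0.684 to 0.845). On the log2 scale MRPL30 was at -0.25, MRPS34 at -0.27, MRPS24 at -0.34, MRPS25 at -0.36 and MRPS16 at -0.37. The intervals of 40 members lay wholly below 1, and those of MRPL27, MRPL30 and MRPS34 included 1. The median ratio of all genes was 0.324, and no intervals were made for them, so this count is not a trait of the family. The interval of MRPL36 was 0.050 to 0.164 and that of MRPS16 0.684 to 0.845, both well expressed in mock.

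**Figure D3:**
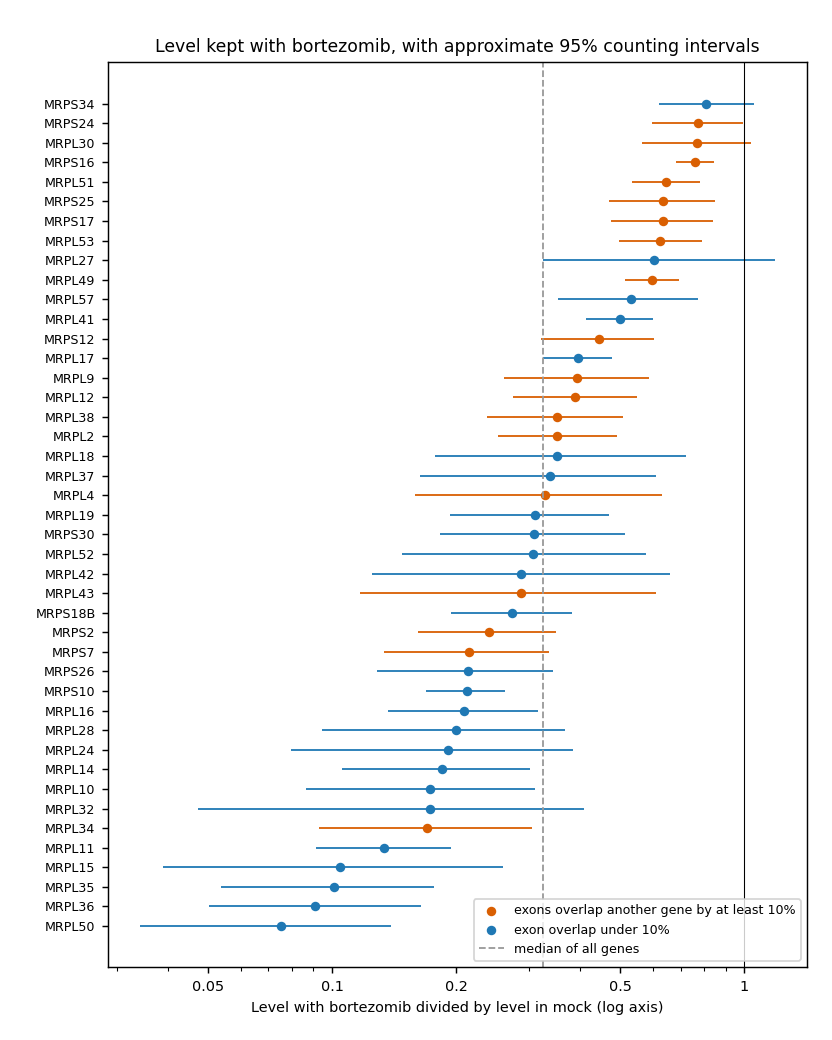
Level with bortezomib divided by level in mock (log axis) for each member, with approximate 95% counting intervals as bars, the median of all genes (0.324) as a dashed line and no difference as a solid line. Members whose exons overlap another gene by at least 10% of their length are orange and the others blue. The points run from 0.0753 for MRPL50 to 0.808 for MRPS34, and most orange points lie right of the dashed line.

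By origin, the large subunit members that descend from bacteria had lower medians with bortezomib than the other large subunit members. Of these 20 members 15 (75%) were 2-fold lower, where 48.1% of all genes were, with a median log2 difference of -1.24 and a median ratio of 0.204. Of the 12 large subunit members with no bacterial counterpart 1 (8.33%) was 2-fold lower, with medians of -0.89 and 0.345. As plain ratios, 18 of the 20 (90%) and 7 of the 12 (58.3%) were at 0.5 or less, where 72.2% of all genes were. The gap between the groups was thus smaller without the pseudocount. The 11 small subunit members had 5 that were 2-fold lower (45.5%), about the share of all genes on the log2(level + 1) scale. As plain ratios 6 of the 11 (54.5%) were at 0.5 or less, where 72.2% of all genes were. Their median ratio was 0.443, against 0.324 over all genes. Within the small subunit 3 of 7 members with a bacterial counterpart and 2 of 4 without were 2-fold lower. Their median ratios were 0.443 and 0.455. MRPS18B, related to bacterial S18, was counted among the 4 without, at a ratio of 0.273 and a log2 difference of -1.41. Counting MRPS18B with the bacterial group would change both counts, so no order by origin was read here. With CGI-1746 the large subunit groups had medians of -0.02 and 0.01, with LU-102 -0.09 and 0.04, and with the combination 0.08 and 0.17, the bacterial group first in each pair. No test of these splits was made, and the groups overlapped: MRPL30 in the bacterial group had a ratio of 0.769 and MRPL50 in the other 0.0753.

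Overlap with other genes went with the same values. The exons of 18 members overlap those of another GENCODE gene over at least 10% of their length, and reads there cannot be told apart by position. In 6 of them (MRPL12, MRPL30, MRPL38, MRPL53, MRPS17 and MRPS24) the overlap reaches this size on the same strand, so a strand setting would not part the genes. In the other 12 most of it is with genes of the opposite strand, where reads are ambiguous if strand was not used, and the sources used here do not give the setting. The median ratio with bortezomib was 0.418 for these 18 and 0.214 for the other 25. Among all protein-coding genes of the table the same split gave 0.335 for 947 genes and 0.312 for 3016. MRPS16 overlaps DNAJC9, MRPL51 NCAPD2, MRPL53 CCDC142, MRPS12 SARS2, and MRPL49 FAU and SYVN1. MRPS24 overlaps a read-through gene, URGCP-MRPS24, over 23.2% of its exon length. Among the 14 bacterial and 7 other large subunit members without such overlap the median ratios were 0.188 and 0.309. The order of these medians thus held among members without overlap. On the log2(level + 1) scale, which understates the change of low genes, 12 and 1 of them were 2-fold lower. MRPS34 has no overlap of this kind. GENCODE also names pseudogenes for 17 members, among them MRPL57 with 5, and how reads were shared with them is not stated.

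Beside other ribosomal and mitochondrial lists, the family had a bortezomib median near those of the respiratory chain genes and of all genes. With bortezomib the cytosolic ribosomal protein genes had a median of -2.00, with 65 of 79 (82.3%) that were 2-fold lower, and the nuclear-coded respiratory chain genes -1.01, with 29 of 55 (52.7%), where 48.1% of all genes were. With CGI-1746 the cytosolic ribosome had -0.03 and the respiratory chain -0.01, with LU-102 -0.03 and -0.01, and with the combination 0.09 and 0.12. The members were at -0.01, -0.04, 0.09 and -0.996 with CGI-1746, LU-102, the combination and bortezomib. With CGI-1746, LU-102 and the combination their medians were close to those of both lists. Only with bortezomib did the cytosolic ribosome stand apart from the members. As plain ratios with bortezomib, which the pseudocount does not touch, the medians were closer. They were 0.310 for the members, 0.208 for the cytosolic ribosome, 0.323 for the respiratory chain and 0.324 over all genes. The lists of chaperones and proteases and of tRNA synthetases, described below, had 0.312 each. These differences were not tested.

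**Figure D4:**
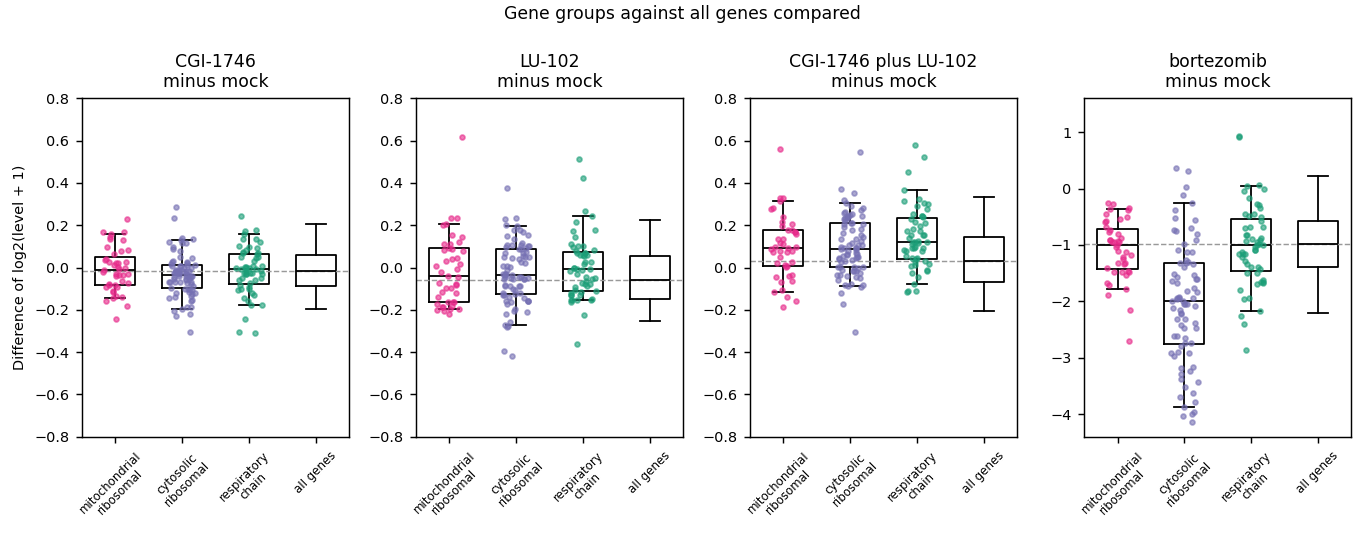
Difference of log2(level + 1) from mock for the mitochondrial ribosomal protein genes, cytosolic ribosomal protein genes, respiratory chain genes and all genes compared, 1 panel per treatment, with a wider axis for bortezomib. Points are genes, boxes show the quartiles and median, whiskers the 5th and 95th percentile, and the dashed line is the median of all genes. The boxes of the members overlap those of all genes in each panel, and with the combination the box of the members lies somewhat higher. With bortezomib the cytosolic box lies lower, around -2.00, while the members lie around -0.996.

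Other genes of mitochondrial translation were taken from lists of their roles. Of 6 mitoribosome proteins under other symbols 4 were measured: AURKAIP1, GADD45GIP1, CHCHD1 and PTCD3. AURKAIP1, of the small subunit, had 6.83, 8.03, 8.87 and 3.43 in CGI-1746, LU-102, combination and bortezomib cells and 6.37 in mock cells, which put it at 0.29 with LU-102 and 0.42 with the combination. GADD45GIP1, of the large subunit, was at 0.24, 0.20, 0.22 and -0.01 with the 4 treatments in that order. CHCHD1 and PTCD3 belong to the small subunit. In the same order of treatments CHCHD1 was at -0.28, -0.13, -0.16 and -0.58, and PTCD3 at -0.00, -0.11, -0.03 and -1.01.

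Of 32 genes for mitoribosome assembly and rRNA modification 12 were measured. Their medians were -0.01, 0.04, 0.11 and -0.93 for CGI-1746, LU-102, the combination and bortezomib. On the log2(level + 1) scale 5 of the 12 were 2-fold lower with bortezomib (41.7%, where 48.1% of all genes were). As plain ratios 10 of the 12 (83.3%) were at 0.5 or less, where 72.2% of all genes were. DDX28, an RNA helicase of large subunit assembly, had 5.32 in combination cells, 3.64 in LU-102 cells and 4.59 in mock cells, and was 0.44 higher with the combination than with LU-102. ERAL1, which chaperones the small subunit rRNA, was at -1.40 with bortezomib, and TRUB2, a pseudouridine synthase, stayed at 0.09 with levels of 1.10 in bortezomib cells and 0.98 in mock cells. Of 20 translation and membrane insertion factors 7 were measured and 3 (42.9%) were 2-fold lower with bortezomib, near the share of all genes. TUFM, the elongation factor that delivers tRNA, had 15.6, 16.5, 18.5 and 3.04 in the treated libraries and 14.7 in mock, with log2 differences of 0.31 with the combination and -1.96 with bortezomib. COA3, which links translation to assembly of complex IV, was at -2.64 with bortezomib, with 1.44 in bortezomib cells against 14.2 in mock cells.

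Lists from other steps of mitochondrial gene expression and protein supply varied more. The 11 measured genes of mitochondrial DNA transcription and RNA processing had -0.05, -0.11, 0.04 and -1.28 with the 4 treatments, and 10 of them (90.9%) were 2-fold lower with bortezomib, where 48.1% of all genes were. TFAM, which packages mitochondrial DNA and starts its transcription, was at -1.56 and TRMT10C of mitochondrial RNase P at -1.76. Of the 19 measured genes of mitochondrial protein import 14 (73.7%) were 2-fold lower with bortezomib. The medians of this list with the 4 treatments were -0.05, -0.08, 0.06 and -1.19. The 6 measured genes of the tRNA synthetase list had medians of -0.05, -0.14, -0.05 and -1.04. None of the 6 lay above 0 with LU-102 or the combination, and 4 (66.7%) were 2-fold lower with bortezomib. The list includes GATC, an amidotransferase subunit and not a synthetase, which was at 0.06 with bortezomib. The 8 chaperone and protease genes had medians of 0.04, -0.02, 0.17 and -0.92. On the log2(level + 1) scale 3 of them (37.5%) were 2-fold lower with bortezomib, where 48.1% of all genes were. These were HSPA9 at -2.12, HSPE1 at -2.04 and HSPD1 at -1.87. As plain ratios 7 of the 8 (87.5%) were at 0.5 or less, where 72.2% of all genes were, so the order against all genes depended on the pseudocount. No gene of these lists or of the members was 2-fold different from mock with CGI-1746, LU-102 or the combination.

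Base composition moved with the small differences from mock. The GC content of the principal transcript ranged from 34.96% to 71.9% over the members. Across the 43 members Spearman's rho between GC content and the log2 difference from mock was 0.43 for CGI-1746, 0.69 for LU-102, 0.62 for the combination and 0.14 for bortezomib. Across 3963 protein-coding genes it was 0.37, 0.71, 0.62 and 0.33 in the same order. These are descriptions across genes of the same libraries, all set against the 1 mock library, and genes are not replicates. With LU-102 the 14 members of lowest GC content had a median of -0.18, the 15 in the middle 0.04 and the 14 of highest GC content 0.06. With the combination these medians were 0.01, 0.10 and 0.20. MRPS34 has a GC content of 64.8% and MRPS10 of 41.6%. With a linear adjustment over all protein-coding genes for GC content, transcript length and level, MRPS34 was at 0.44 with LU-102 and 0.37 with the combination, MRPL4 at 0.06 and 0.16, MRPL41 at -0.05 and 0.04, and MRPS10 at -0.11 in both. MRPS34 was the only member past the 25% threshold with either treatment after this adjustment, and MRPL41 with LU-102 changed sign.

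**Figure D5:**
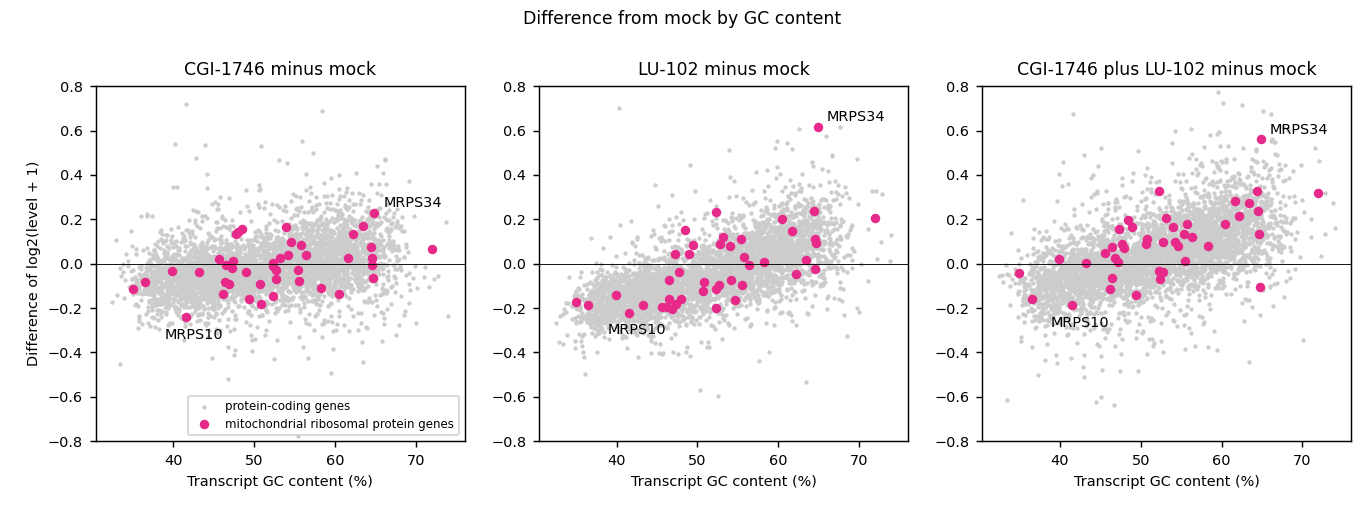
Difference of log2(level + 1) from mock against GC content of the principal transcript, in percent, for protein-coding genes (grey) and the members (pink), with CGI-1746, LU-102 and the combination in 1 panel each; genes beyond the axis range are not drawn. Members and other genes slope upward together with LU-102 (rho 0.69 and 0.71) and the combination (0.62 and 0.62), and MRPS34 lies above other members of like GC content in both.

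Set directly against bortezomib, the other inhibitors gave higher levels of nearly the whole family. With the combination 28 members were 2-fold higher than with bortezomib, where 49.4% of all genes were, and with LU-102 25 were, where 43.1% were. None was 2-fold lower in either comparison, where 1.26% and 1.36% of all genes were. The medians of the members were 1.23 for the combination and 1.09 for LU-102, against 0.99 and 0.91 over all genes. The distance of 0.24 between members and all genes for the combination became -0.20 when both were limited to levels of 5 or more and 0.0029 with the joint adjustment for GC content, length and level. For LU-102 the distance of 0.17 became -0.21 and 0.0097 in these alternatives. On the log2(level + 1) scale MRPL36 differed most, with 12.1 in combination cells and 14.3 in LU-102 cells against 1.22 in bortezomib cells. As a plain ratio of the combination to bortezomib MRPL50 was highest at 12.7, before MRPL35 at 10.1 and MRPL36 at 9.88.

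A minority of members have a start close to that of a neighbour on the other strand. The starts of 11 of the 43 members (25.6%) lie head to head with a protein-coding gene within 1000 bases, against 11.3% of the 3963 protein-coding genes of the table, a difference that was not tested. For MRPS34 the neighbour is EME2, at 52 bases, and for MRPL36 it is NDUFS6, a gene of respiratory complex I, at 34 bases. Only for MRPL18 and TCP1, a gene of the cytosolic chaperonin, at 63 bases, were both genes measured. MRPL18 was at 0.14, -0.16, 0.07 and -0.81 with CGI-1746, LU-102, the combination and bortezomib, and TCP1 at 0.08, -0.15, 0.13 and -1.62. Members are also short genes, with a median transcript of 1262 bases and 4 exons, against 2554 bases and 7 exons for the protein-coding genes of the table.

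The library-wide facts that touch these values are few. If the levels are RPKM, the libraries held about 17000000, 17100000, 17000000 and 18600000 reads for CGI-1746, LU-102, the combination and bortezomib, and 16800000 for mock. With bortezomib 2231 genes had a level of 1 or more, and in the other libraries 4161 to 4177. The 8 mesenchymal genes of this line were listed at 4.85 to 92.1 in mock, VIM highest, and the keratin genes KRT18, KRT19 and KRT8 of luminal epithelium at 35.5, 12.1 and 2.02, the first 2 above several of the mesenchymal genes. The authors' deposited table also holds p-values and FDR for its 6 comparisons. The sources used here do not state the test that gave these values from 1 library a condition, so none is reported for the members.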

How the data were processed

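RNA was sequenced with paired reads of 150 bp, 1 library for each of 5 conditions. The submitters' processing notes name Partek and hg38; the sources used here give no aligner, annotation, strand setting or normalization. The signal deposited by the authors is a least squares mean per gene and library, per the file headers, on an unstated scale. The ratio columns deposited by the authors divide the first condition by the second, per the file headers, and their p-value and FDR columns were copied, not recomputed. Repeated columns of a library, 7 in all, were identical to those used.

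Comparisons used log2(level + 1), a pseudocount of 1, for genes at a level of 1 or more in either library. Members were counted at 2-fold and at 25% beside the same share of all genes. No test was run, since each condition has 1 library, and calculations were tested on simulated data. The members and lists were chosen with earlier results of these data known. For each treatment against mock and for the mock level the 5 highest and 5 lowest members are named, with the 3 highest and 3 lowest departures and MRPS18B. In other lists up to 4 genes farthest from the median of all genes are named. Other names were chosen after their values were seen. Transcript lengths, GC content, exons and neighbours came from GENCODE 29 on GRCh38, which matched 43 of 43 members, and promoters from RefSeq, GRCh38.p14. Reads per member are approximate: level times transcript length, divided by what 1 read added in short genes of a single exon (58.8, 58.5, 58.8, 53.8 and 59.4 for CGI-1746, LU-102, the combination, bortezomib and mock). Alternatives were pseudocounts of 0.1 and 5, no filter, a minimum level of 5, median-of-ratios scaling over 445 genes, adjustment for GC content, length and level, single subunits and, added after seeing the data, centring on the median of all genes. The software was matplotlib 3.10.9, scipy 1.17.1, pandas 2.3.3 and numpy 2.4.6 under Python 3.11.15.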

Additional observations from a re-analysis of the deposited data

How the results depend on the processing

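No paired analysis was possible because each condition has 1 library. For the same reason none was left out. Medians of the members against mock moved by under 0.1 on the log2 scale for CGI-1746, LU-102 and the combination under every alternative run. No named member that was 2-fold different changed direction. Counts of members below stand without the share of all genes under the same alternative, so they cannot be read as a trait of the family. The median of all genes with bortezomib against mock moved as well, from -0.98 as reported. It was -0.44 with median-of-ratios scaling, -0.38 and -1.53 with pseudocounts of 5 and 0.1, and -1.43 at a minimum level of 5.

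Under median-of-ratios scaling the median of the members with bortezomib against mock was -0.43 and 9 members were 2-fold lower. Against bortezomib the medians were 0.47 for the combination and 0.49 for LU-102, with 7 members 2-fold higher in each, and the combination lay 0.082 above all genes. The combination against CGI-1746 had a median of -0.017 and 0 members 25% or more higher, and against LU-102 -0.0016, with 0 higher and 1 lower. The median departure was -0.0081, and 1 member was 25% or more higher with the combination than in mock.

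A pseudocount of 5 gave a median of -0.45 with bortezomib and 3 members 2-fold lower. Against bortezomib it gave 0.52 for the combination, 0.13 above all genes, and 0.46 for LU-102, with 3 members 2-fold higher in each. A pseudocount of 0.1 gave -1.56 with bortezomib, and 1.67 for the combination, 0.10 above all genes, and 1.57 for LU-102 against it. Counts at 25% or more higher with a pseudocount of 0.1 were 2 for LU-102 against mock, 5 for the combination against CGI-1746 and 4 against LU-102, and with a pseudocount of 5 they were 1 for the combination against mock and 0 against either agent.

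With a minimum level of 5, 18 to 20 members were left. The bortezomib median was -1.13, 0.29 above all genes, with 10 members 2-fold lower. Against bortezomib the combination was 0.20 below all genes (-0.20) and LU-102 0.21 below (-0.21), with 14 and 13 members 2-fold higher. At 25% or more higher there was 1 member for the combination against mock, 1 against CGI-1746 and 0 against LU-102.

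Adjustment for GC content, length and level put the combination at 1.07 against bortezomib, 0.0029 above all genes, and LU-102 0.0097 above. At 25% or more higher it left 1 member for the combination against mock and 0 against either agent. Centring on the median of all genes left the same numbers, 1 and 0 against either agent, and 2 members 2-fold lower with bortezomib, 2 higher with the combination than with bortezomib and 2 higher with LU-102. Apart from the construction of each alternative the cause was not tested. Taking either subunit alone, or no filter, changed no summary beyond its tolerance. The smallest sum of 5 levels of a listed gene is 5.04, and the members outside it are not described here. With a median of about 30 reads behind a member with bortezomib, its ratios are known within wide intervals.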
